A study of Mus musculus with 6 samples.

Results

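Follistatin, the activin subunits and the TGF-beta ligands, receptors and SMADs were followed across bulk cells and both populations of breast cancer stem cells (BCSCs) of MMTV-PyMT mammary tumors. The 10 genes were those whose symbol equals *Fst*, *Inhba*, *Inhbb*, *Tgfb1*, *Tgfb2*, *Tgfb3*, *Tgfbr1*, *Tgfbr2*, *Smad3* or *Smad7*, out of 14889 genes with a symbol. All 10 passed the filter on low values that left 12512 genes for testing, namely at least 1 RPKM (a level per length of gene and per depth of library) in at least 2 libraries. Cells came from 2 spontaneous breast tumors of mice of the strain given as FVBN, which carry the polyoma virus middle-T antigen under the MMTV promoter, an oncogene that all groups share and that this promoter drives mainly in mammary epithelium. P1 were BCSCs sorted as CD29hi CD61+, P2 were BCSCs sorted as ALDH+ and P0 was the bulk, non-CSC rest of each tumor, so that 3 populations of 2 tumors gave 6 libraries of poly(A) RNA. The age of the mice was not given in the sources used here, nor was it stated if a single mouse bore both tumors.

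Activins are dimers of inhibin beta subunits, beta A from *Inhba* and beta B from *Inhbb*, and they signal through type II and type I serine/threonine kinase receptors. Follistatin, the product of *Fst*, is a secreted protein that binds activin and keeps it from its receptors. The TGF-betas are secreted in a latent form, bind the type II receptor TGFBR2, which recruits the type I receptor TGFBR1, and lead, as activins do, to phosphorylation of receptor-regulated SMADs such as SMAD3, while the inhibitory SMAD7 blocks the receptors. In mammary epithelium TGF-beta is known to restrain proliferation, and in carcinoma cells it is known for promoting invasion and epithelial-mesenchymal transition.

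The promoter sequences of *Inhba* and *Inhbb* are shown because they encode the alternative activin subunits, whose mRNAs had different profiles over the populations. That of *Tgfb2* is shown because, among the windows matched for 7 of the 10 genes, it holds the most matches to the motif that SMAD3 is known to bind. The windows hold the 250 bases before the annotated start, 5′ to 3′ on the gene's strand, from RefSeq (build GRCm38.p6), and capitals mark CAGAC or GTCTG. Windows of a single chromosome were left out of the set searched, and *Fst*, *Tgfb3* and *Smad7* had no window in it.
Inhba, chr13:16011601-16011850, plus strand: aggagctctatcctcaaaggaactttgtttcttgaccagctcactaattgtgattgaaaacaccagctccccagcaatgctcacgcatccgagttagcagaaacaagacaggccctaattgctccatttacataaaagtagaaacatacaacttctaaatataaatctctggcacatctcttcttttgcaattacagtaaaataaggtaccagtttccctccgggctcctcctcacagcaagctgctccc
Inhbb, chr1:119422249-119422498, minus strand: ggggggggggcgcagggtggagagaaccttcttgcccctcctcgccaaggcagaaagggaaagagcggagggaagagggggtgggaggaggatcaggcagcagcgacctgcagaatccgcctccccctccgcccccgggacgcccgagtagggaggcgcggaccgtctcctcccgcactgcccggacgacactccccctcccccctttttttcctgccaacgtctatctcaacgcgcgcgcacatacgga
Tgfb2, chr1:186705990-186706239, minus strand: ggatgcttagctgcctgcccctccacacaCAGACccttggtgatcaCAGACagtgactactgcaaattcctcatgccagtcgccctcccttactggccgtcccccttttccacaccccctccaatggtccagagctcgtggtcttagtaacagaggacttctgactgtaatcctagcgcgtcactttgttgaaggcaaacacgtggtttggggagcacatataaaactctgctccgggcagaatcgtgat
CAGAC, read on either strand as CAGAC or GTCTG, stood 2 times in the *Tgfb2* window and 0 times in those of *Inhba* and *Inhbb*. It stood 1 time each in the *Tgfbr2* window and in 1 of the 2 *Tgfbr1* windows and 0 times in those of *Tgfb1* and *Smad3*. Of the 32851 windows in the set searched, 42.2% held it at least once. Searches on both strands for TGANTCA, the AP-1 motif, and for TGACGTCA, the cAMP response element, found 0 matches in the 3 windows, against 6.75% and 1.55% of the windows in that set. The searched motifs do not overlap each other. These matches describe the letters of the windows only.

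Libraries held between 19037070 and 48008802 reads in genes. Genes without any reads were more frequent in tumor 1, with 1947 to 3904 per library, than in tumor 2, with 360 to 759, although the tumor 1 libraries were the deeper ones. Luminal markers summed to between 24278 and 38470 RPKM, with none of the 10 luminal markers at 0 in any library, and the endothelial (3 of 6 in the table) and lymphocyte (2 of 6) markers summed to at most 1.29 and 2.23 RPKM. In such mixed cells, fewer cells of a type and less RNA per cell cannot be told apart. With 2 tumors, all p-values rest on the spread between these libraries only. Where the tumor enters as a replicate block, it is the spread left after a shift between the tumors. Limits for genes without reads cover counting error only.

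The mean level over the 6 libraries was highest for *Smad3* (42.4 RPKM) and *Tgfbr2* (39.3 RPKM), followed by *Tgfb2* (31.3 RPKM), *Tgfbr1* (25.6 RPKM), *Smad7* (22.7 RPKM), *Tgfb1* (21.7 RPKM), *Inhba* (20.4 RPKM), *Fst* (16.1 RPKM), *Tgfb3* (8.71 RPKM) and *Inhbb* (7.91 RPKM). Every pair of neighbors in this order overlapped in their values over the libraries. The span between the lowest and the highest library, on the log2(RPKM + 1) scale, was 4.25 for *Tgfb3*, 3.52 for *Fst* and 2.90 for *Inhba*, which exceeded the spans of 97.3%, 93.9% and 88.6% of the genes tested. The spans of the other 7 genes were between 0.64 for *Tgfb1* and 1.40 for *Inhbb*, at or below the median span of 1.42 over all genes tested. The antagonist, the beta A subunit and 1 TGF-beta ligand thus varied most among the libraries, and the receptors and SMADs varied less. The first rank of *Tgfb3* rests on its value of 0 in P2 of tumor 1, and its other libraries ran from 2.93 to 18.04 RPKM.

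**Figure D1:**
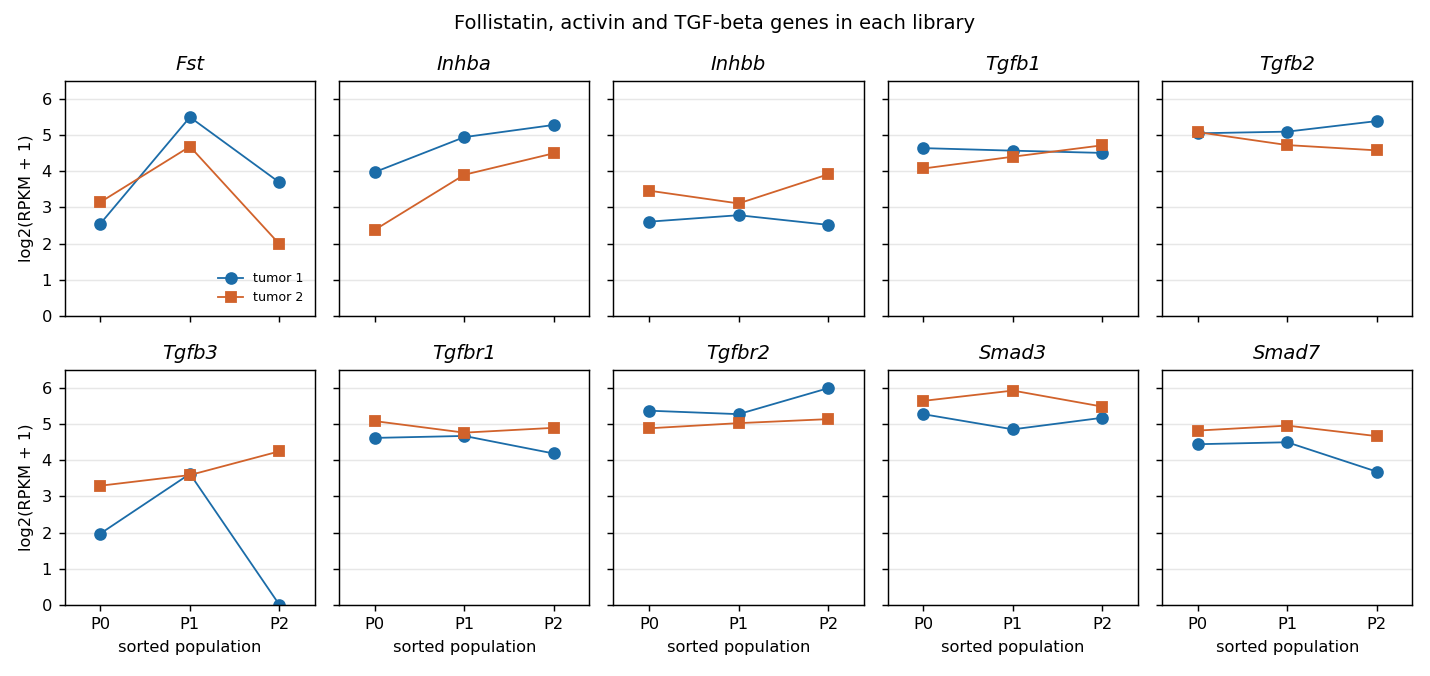
Level of each gene in the 6 libraries as log2(RPKM + 1), with the sorted population on the horizontal axis (P0, P1, P2) and 1 line per tumor, each point being 1 library. *Fst* peaked in P1 of both tumors (44.3 and 24.7 RPKM), *Inhba* was highest in P2 (38.0 and 21.6 RPKM), and *Tgfb3* was at 0 in P2 of tumor 1.

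The extracellular antagonist *Fst* (gene identifier 14313) was highest in CD29hi CD61+ cells of both tumors. Its level was 4.87 RPKM in tumor 1 and 7.87 RPKM in tumor 2 in P0, 44.3 and 24.7 RPKM in P1, and 11.9 and 2.96 RPKM in P2. Both P1 libraries lay above all 4 other libraries, and the P0 and P2 libraries overlapped. These levels rested on 244 to 9211 reads per library.

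Against bulk cells, *Fst* in P1 was 9.09-fold higher in tumor 1 and 3.15-fold higher in tumor 2. The limma estimate, the difference of log2(RPKM + 1), was 2.24 (SE 0.65, 95% interval 0.76 to 3.73), with an unadjusted p of 0.00815 and an adjusted p of 1.00 over the 12512 genes. In limma-voom on the whole reads recovered from the RPKM, the log2 fold change of *Fst* was 2.54 (SE 0.52) with an adjusted p of 0.0462, so that *Fst* passed the threshold of 0.05 there, and with the tumor as a replicate block it was 2.73 with an adjusted p of 0.0601. Leaving out 1 library at a time in limma-voom gave *Fst* an adjusted p of 1.00 when the P0 library of tumor 1 was dropped, 0.215 for that of P0 from tumor 2 and 0.534 for that of P1 from tumor 1, against 0.00136 for P1 from tumor 2, 0.000322 for P2 from tumor 1 and 0.00119 for P2 from tumor 2. The *Fst* estimate stayed between 1.84 and 2.91 in every one of the 20 settings, 4 of which gave a call.

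**Figure D2:**
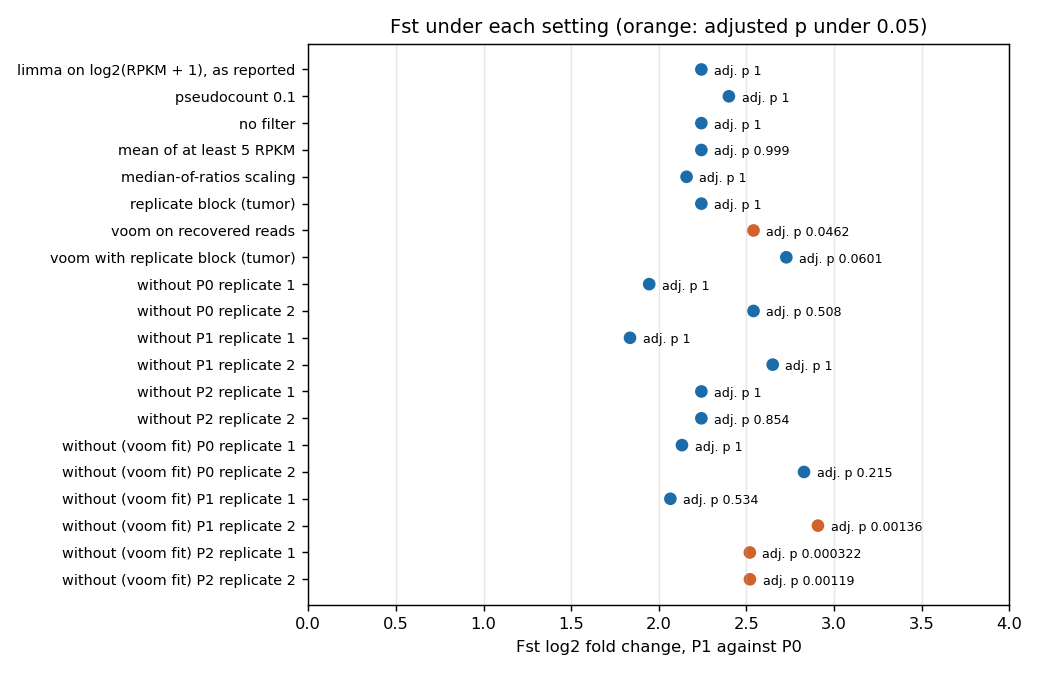
*Fst* in P1 against P0 under each setting, with the log2 fold change on the horizontal axis, 1 point per setting and its adjusted p beside it. Replicate 1 and replicate 2 stand for tumor 1 and tumor 2, and the 4 settings with an adjusted p under 0.05, all of them limma-voom, are orange.

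Against ALDH+ cells, *Fst* in P1 was 3.71-fold higher in tumor 1 and 8.37-fold higher in tumor 2. The limma difference of log2(RPKM + 1) was 2.26 (SE 0.65, unadjusted p 0.00791, adjusted p 1.00), and limma-voom gave *Fst* an adjusted p of 0.179, or 0.171 with the tumor as a replicate block. With 1 library dropped in limma-voom, the adjusted p of *Fst* was 1.00 for P1 of tumor 1, 0.410 for P2 of tumor 2, 0.00957 for P1 of tumor 2 and between 0.0831 and 0.102 for the other 3, so that 1 of 20 settings gave a call. Between ALDH+ and bulk cells the tumors went opposite ways, since *Fst* in P2 was 2.45-fold higher than P0 in tumor 1 and 2.66-fold lower in tumor 2. The limma difference there was -0.01 (SE 0.65, 95% interval -1.50 to 1.47).

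The summed level of basal or myoepithelial markers was highest in P1 of both tumors, as was *Fst*. From P0 to P2 of tumor 2 this sum was higher while *Fst* was lower. The 9 basal markers measured of 9 listed summed to 300.6 and 346.5 RPKM in P0, 909 and 964 RPKM in P1, and 666 and 442 RPKM in P2, and none of them was at 0 in P1, against 3 and 1 in P0 and 2 and 0 in P2. *Krt5*, a basal keratin, was at 3.23 and 8.87 RPKM in P0, 128 and 48.8 RPKM in P1, and 4.67 and 3.52 RPKM in P2. *Krt14*, another basal keratin, was higher in P2 (471 RPKM) than in P1 (456 RPKM) of tumor 1, while each other basal marker was highest in P1 of both tumors. In tumor 2 *Krt14* went from 245 RPKM in P0 to 339 RPKM in P2, which made up most of the rise of the sum. There *Krt5*, *Trp63* and *Myh11* were lower in P2 than in P0, as was *Fst*, and the other basal markers were higher. The part of basal cells in the *Fst* difference was not tested.

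Both activin subunit genes were expressed, with different profiles. *Inhba* (gene identifier 16323), which encodes the beta A subunit, was at 14.8 and 4.20 RPKM in P0, 29.8 and 14.0 RPKM in P1, and 38.0 and 21.6 RPKM in P2. Within each tumor its order was P0, P1, P2 from low to high, and both P2 libraries lay above both P0 libraries. In P2 *Inhba* was 2.57-fold higher than in P0 in tumor 1 and 5.14-fold higher in tumor 2, and the limma difference of log2(RPKM + 1) was 1.71 (SE 0.63, 95% interval 0.27 to 3.16, unadjusted p 0.0256, adjusted p 0.985). The adjusted p of this *Inhba* difference was 0.605 with the tumor as a replicate block and 0.776 in limma-voom, and it ranged from 0.271 to 1.00 over 20 settings, none of which gave a call. The *Inhba* estimate in P2 against P0 ranged from 0.91, by limma without P0 of tumor 2, to 2.79, by limma-voom without P0 of tumor 1. In P1 *Inhba* was 2.02-fold and 3.32-fold higher than in P0 (limma difference 1.25, SE 0.63, adjusted p 1.00), and the P0 and P1 libraries overlapped.

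*Inhbb* (gene identifier 16324), which encodes the beta B subunit, was at 5.08 and 10.03 RPKM in P0, 5.89 and 7.63 RPKM in P1, and 4.72 and 14.1 RPKM in P2. The groups overlapped in every comparison, and tumors 1 and 2 went opposite ways in each. The limma differences of log2(RPKM + 1) for *Inhbb* were -0.09 in P1 and 0.18 in P2 against P0 (SE 0.64 each), with 95% intervals of -1.55 to 1.38 and -1.28 to 1.65.

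The ratio of *Fst* to *Inhba* RPKM set the antagonist beside the beta A subunit within each library. In tumors 1 and 2, this ratio was 1.48 and 1.77 for P1, 0.330 and 1.87 for P0 and 0.314 and 0.137 for P2. *Fst* exceeded *Inhba* in both P1 libraries and in P0 of tumor 2, and *Inhba* exceeded *Fst* by 3.18-fold and 7.31-fold in P2. The P1 and P2 libraries did not overlap in this ratio, and the P0 libraries lay on both sides. Both genes enter the ratio from the same libraries, so it adds no independent evidence to their separate differences.

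Among the TGF-beta ligands, *Tgfb1* and *Tgfb2* spanned 1.60-fold and 1.79-fold between their lowest and highest libraries, whereas *Tgfb3* went from 0 to the level of the other ligands. *Tgfb1* (gene identifier 21803) was at 24.0 and 15.9 RPKM in P0, 22.8 and 20.2 RPKM in P1, and 21.8 and 25.4 RPKM in P2. *Tgfb2* (gene identifier 21808) was at 32.2 and 32.9 RPKM in P0, 33.3 and 25.5 RPKM in P1, and 41.0 and 22.9 RPKM in P2. For both of these ligands the tumors went opposite ways in every comparison. The limma differences of log2(RPKM + 1) against P0 were 0.13 in P1 and 0.25 in P2 for *Tgfb1* (SE 0.38) and -0.16 and -0.08 for *Tgfb2* (SE 0.39). Their 95% intervals all lay between -1.05, the lower end for *Tgfb2* in P1, and 1.13, the upper end for *Tgfb1* in P2.

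*Tgfb3* (gene identifier 21809) was at 2.93 and 8.84 RPKM in P0, 11.4 and 11.1 RPKM in P1, and 0 and 18.04 RPKM in P2. The library of P2 from tumor 1 held 0 reads of *Tgfb3*, which allows up to 0.0373 RPKM, whereas P2 of tumor 2 held 1163 reads, the highest level of the 6 libraries. In tumor 1 *Tgfb3* in P2 was thus at least 78.6-fold lower than in P0 and at least 305-fold lower than in P1, counting 3 reads in P2 as the limit, and in tumor 2 it was 2.04-fold and 1.63-fold higher. Of the 3900 named genes with no reads in that library, 472 had at least 1 RPKM in each other library, *Tgfb3* among them, and 167 were in each other library at or above 2.93 RPKM, the lowest *Tgfb3* level elsewhere. The same count of genes missing from a single library was 237 for P0 of tumor 1, 29 for P1 of tumor 1 and 0 to 2 for the libraries of tumor 2, and its part in the *Tgfb3* value was not tested.

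In P1 *Tgfb3* was 3.88-fold and 1.25-fold higher than in P0, and the groups did not overlap. The limma difference of log2(RPKM + 1) was 0.97 (SE 1.21, adjusted p 1.00) for *Tgfb3* in P1 against P0. This SE comes from all populations, so it takes in the spread between the P2 libraries. For the same comparison limma-voom gave *Tgfb3* 1.39 (SE 0.63, unadjusted p 0.0360, adjusted p 0.847), or 0.47 (SE 1.00, adjusted p 0.989) with the tumor as a replicate block. In P2 against P0 the *Tgfb3* difference was -0.51 (SE 1.21), with P2 of tumor 1 at 0, and the estimate was 1.61 without that library and -2.64 without P2 of tumor 2. The sum of the 3 TGF-beta ligands was 59.1 and 57.6 RPKM in P0, 67.4 and 56.7 RPKM in P1, and 62.7 and 66.3 RPKM in P2, while the *Tgfb3* part of this sum went from 0% in P2 of tumor 1 to 27.2% in P2 of tumor 2.

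The type I receptor gene *Tgfbr1* (gene identifier 21812) was at 23.6 and 33.0 RPKM in P0, 24.6 and 26.2 RPKM in P1, and 17.3 and 28.9 RPKM in P2. The type II receptor gene *Tgfbr2* (gene identifier 21813) was at 40.5 and 28.6 RPKM in P0, 37.9 and 31.7 RPKM in P1, and 62.9 and 34.3 RPKM in P2. In P2 against P0, *Tgfbr1* was lower and *Tgfbr2* higher in both tumors, although the groups overlapped for both receptors. *Tgfbr1* was 1.37-fold and 1.14-fold lower (limma difference -0.31, SE 0.40, adjusted p 0.992), and *Tgfbr2* was 1.55-fold and 1.20-fold higher (limma difference 0.44, SE 0.40, adjusted p 0.985). In P1 against P0 the limma differences were -0.13 for *Tgfbr1* and 0.02 for *Tgfbr2*, with 95% intervals of -1.04 to 0.78 and -0.89 to 0.94.

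The receptor-regulated *Smad3* (gene identifier 17127) was at 37.8 and 49.1 RPKM in P0, 28.02 and 60.1 RPKM in P1, and 35.2 and 43.9 RPKM in P2. Tumor 2 was above tumor 1 in each population, and the groups overlapped. The limma differences of *Smad3* against P0 were -0.07 in P1 and -0.13 in P2 (SE 0.42). The inhibitory *Smad7* (gene identifier 17131) was at 20.8 and 27.3 RPKM in P0, 21.7 and 30.2 RPKM in P1, and 11.9 and 24.5 RPKM in P2. In both tumors P2 had the lowest *Smad7* level, 1.75-fold and 1.12-fold lower than P0 (limma difference -0.46, SE 0.45, adjusted p 0.986), and the values of P2 overlapped those of the other populations.

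**Figure D3:**
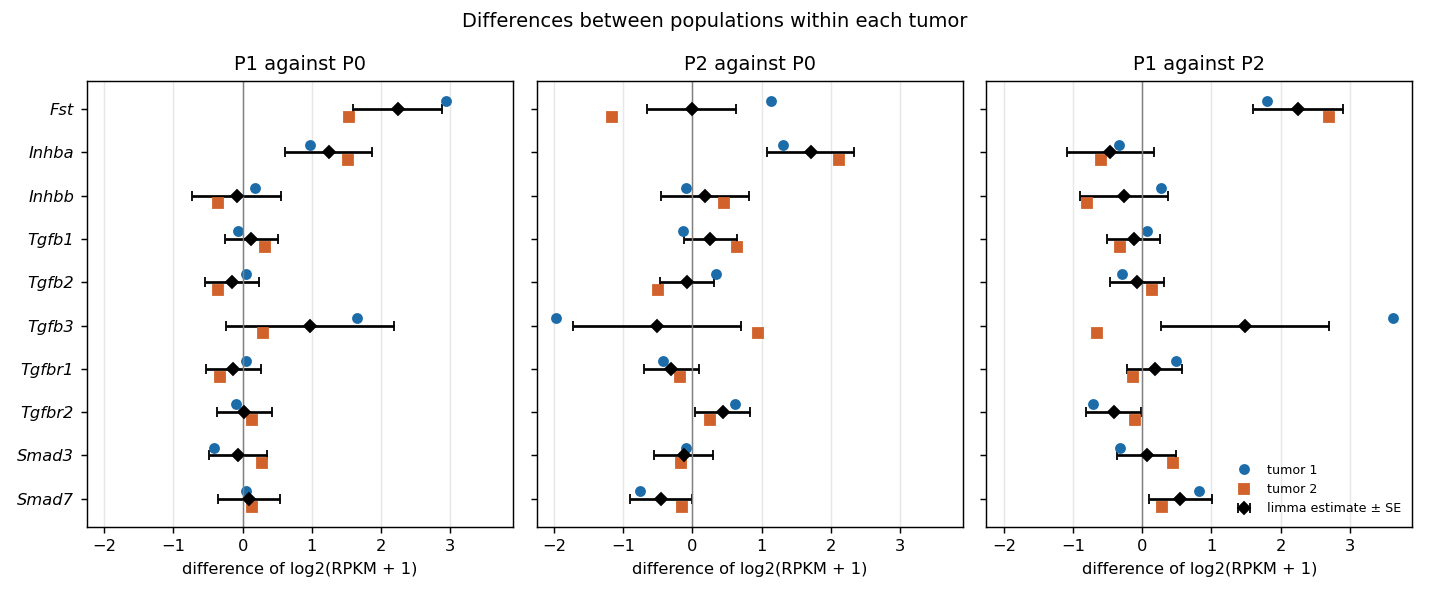
Differences of log2(RPKM + 1) between populations for the 10 genes, with a blue circle for tumor 1, an orange square for tumor 2 and a black diamond with its standard error for the limma estimate. *Fst* lies to the right of 0 in both tumors in P1 against P0 and against P2, *Inhba* in P1 and P2 against P0, and the markers of *Tgfb3* fall on opposite sides wherever P2 enters.

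In P1 against P0, 4 of the 10 genes (*Fst*, *Inhba*, *Tgfb3* and *Smad7*) were higher in both tumors and 0 were lower in both, where 29.2% of all genes tested were higher in both and 17.6% lower. After median-of-ratios scaling of the libraries these counts were 3 and 2, since *Smad7* in tumor 1 was then at 0.935 of P0 and *Tgfb2* and *Tgfbr1* were lower in both. The shares over all genes tested were not counted after scaling in any comparison, so the scaled counts stand without a background. The median limma difference of log2(RPKM + 1) was 0.06 over the 10 genes and 0.12 over all genes tested. By limma 0 genes of all tested (0%) had an adjusted p under 0.05, 237 (1.89%) had an unadjusted p under 0.05, and of the 10 genes *Fst* alone was among them. With a replicate block for the tumor, 429 genes had an unadjusted p under 0.05, *Inhba* (p 0.0137) among them beside *Fst* (p 0.00484), and *Inhba* had an unadjusted p of 0.0496 in limma-voom with the block. By limma-voom 9 genes (0.0719%) passed the adjusted threshold, *Fst* again being the 1 gene of the 10.

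In P2 against P0, *Inhba* and *Tgfbr2* were higher in both tumors and *Tgfbr1*, *Smad3* and *Smad7* were lower in both, with 24.5% of all genes tested higher and 22.9% lower. Scaling left this sorting of the 10 genes as it was. The median difference was -0.05 over the 10 genes and 0 over all genes tested. By limma 0 genes (0%) passed the adjusted threshold, or 3 once the tumor entered as a replicate block (*Mir1982*, *Mirlet7d* and *Bgn*), none of them of the 10. At an unadjusted p under 0.05 there were 489 genes (3.91%), *Inhba* alone of the 10 among them, and 1 gene (0.00799%), the matrix gene *Tnc*, passed by limma-voom.

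In P1 against P2, *Fst* and *Smad7* were higher in both tumors and *Inhba* and *Tgfbr2* were lower in both, with 31% of all genes tested higher and 21.5% lower. *Tgfb1* joined the lower ones after scaling. The median difference was -0.01 over the 10 genes and 0.11 over all genes tested. By limma 0 genes (0%) passed the adjusted threshold, 312 (2.49%) had an unadjusted p under 0.05 with *Fst* alone of the 10 among them, and 7 genes (0.0559%) passed by limma-voom, none of the 10. All 3 comparisons share libraries pairwise, so their values are not independent of each other.

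A list of 84 other genes of the activin, TGF-beta and BMP pathways was read by role, of which 76 were in the table and 60 passed the filter on low values. By limma none passed the adjusted threshold in any comparison. In P1 against P0, 4 had an unadjusted p under 0.05, all of them higher, 26 of the 60 (43.3%) were higher in both tumors and 13 (21.7%) were lower, and the median difference of log2(RPKM + 1) was 0.27. Over all genes tested 1.89% had an unadjusted p under 0.05, 29.2% were higher, 17.6% were lower and the median was 0.12. In P2 against P0, 3 had an unadjusted p under 0.05, again higher, 17 (28.3%) were higher in both tumors and 6 (10%) were lower, and the median difference was 0.04, against 3.91%, 24.5%, 22.9% and a median of 0 over all genes tested. In P1 against P2, 1 was higher and 2 were lower at an unadjusted p under 0.05, 24 (40%) were higher in both tumors and 13 (21.7%) were lower, and the median difference was 0.04, against 2.49%, 31%, 21.5% and a median of 0.11 over all genes tested.

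Among other ligands and the proteins that store or release them, the genes of highest level showed small differences. *Bmp1*, which encodes a metalloproteinase of the extracellular matrix, ranged from 8.37 to 15.4 RPKM, and *Gdf3*, which encodes a ligand of the family, from 3.35 to 6.22 RPKM. *Gdf15*, which encodes a divergent ligand of the family, was at 4.46 and 4.03 RPKM in P0, 0 and 3.33 RPKM in P1, and 6.05 and 7.17 RPKM in P2, with a limma difference of -1.87 in P1 against P2 (unadjusted p 0.0444, adjusted p 1.00). *Gdf15* was among the 29 genes with no reads in P1 of tumor 1 and at least 1 RPKM in each other library. The part of that 0 in the *Gdf15* difference was not tested. *Thbs1*, which encodes thrombospondin 1, an activator of latent TGF-beta, was at 1534 and 740 RPKM in P0, 1087 and 571 RPKM in P1, and 1072 and 546 RPKM in P2. *Itgav*, the alpha subunit of integrins that release TGF-beta from its latent complex, was at 211 and 166 RPKM in P0, 143 and 115 RPKM in P1, and 195 and 123 RPKM in P2. Both of these activators were highest in the P0 library of each tumor, and neither had an unadjusted p under 0.05 by limma without a replicate block.

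Among the other extracellular antagonists, *Dcn* and *Fstl1* were higher in P1 and in P2 than in P0 of the same tumor. *Dcn*, which encodes decorin, a proteoglycan that binds TGF-beta, was at 0 and 0.592 RPKM in P0, 1.62 and 7.94 RPKM in P1, and 12.5 and 21.0 RPKM in P2, with limma differences of 1.94 in P1 and 3.77 in P2 (unadjusted p 0.0338 and 0.00102, adjusted p 1.00 and 0.985). *Fstl1*, which encodes a secreted follistatin-like glycoprotein, was at 0 and 1.51 RPKM in P0, 4.99 and 12.1 RPKM in P1, and 3.24 and 16.7 RPKM in P2, with limma differences of 2.48 and 2.45 (unadjusted p 0.0213 and 0.0226). *Fstl1* was among the 237 genes with no reads in P0 of tumor 1 and at least 1 RPKM in each other library. The part of that 0 in the *Fstl1* differences was not tested. *Fstl3*, which encodes a follistatin-like protein that binds activin, differed in profile from *Fst*, with 10.1 and 13.0 RPKM in P0, 5.29 and 11.2 RPKM in P1, and 9.09 and 13.5 RPKM in P2.

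The summed level of fibroblast markers, *Dcn* among them, was also higher in P1 and P2 than in P0 of the same tumor. Not every marker went this way, since *Fap* in tumor 1 was at 0.296 RPKM in P0 and at 0 in P1 and P2. The 10 fibroblast markers, all in the table, summed to 1.68 and 6.97 RPKM in P0, 17.0 and 94.8 RPKM in P1, and 74.8 and 430 RPKM in P2. From P1 to P2 of tumor 1 this sum was higher while *Fstl1* was lower. In tumor 1 the markers at 0 numbered 6 for P0, 3 for P1 and 4 for P2, and in tumor 2 they numbered 4, 1 and 0. In P2 of tumor 1 *Col1a1* (10.3 RPKM), *Col1a2* (23.4 RPKM), *Col3a1* (22.8 RPKM) and *Dcn* made up most of the sum, with *Pdgfrb*, *Lum*, *Fap* and *Pdpn* at 0. *Pdgfrb* was at 0 in 4 libraries, with 0.651 RPKM in P1 and 2.20 RPKM in P2 of tumor 2, and *Pdgfra* was at 0 in P0 of tumor 1 and between 0.313 and 2.67 RPKM in the others. *Inhba* too was lowest in P0 and highest in P2 of both tumors. The part of fibroblasts in these differences was not tested.

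By limma without a replicate block, no tested receptor or SMAD gene of the list had an unadjusted p under 0.05 in any comparison. *Acvr1*, which encodes a type I receptor, ranged from 45.5 to 89.3 RPKM and *Bmpr1a*, a type I receptor for BMPs, from 11.8 to 30.4 RPKM. *Smad4*, the common partner of the receptor-regulated SMADs, was at 14.8 and 51.2 RPKM in P0, 38.0 and 34.5 RPKM in P1, and 40.2 and 33.6 RPKM in P2. *Smad1*, which acts downstream of BMP receptors, was at 11.2 and 41.6 RPKM in P0, 24.8 and 32.9 RPKM in P1, and 12.6 and 28.4 RPKM in P2. For both of these SMADs the P0 libraries enclosed all other values. Among intracellular regulators, *Tgif1*, a corepressor, ranged from 69.6 to 90.8 RPKM, and *Pmepa1*, a TGF-beta-induced inhibitor of the pathway, from 136 to 224 RPKM.

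Known target genes of TGF-beta or BMP signaling did not share a single profile. *Tgfbi*, a TGF-beta-induced matrix protein, was at 2.38 and 0.864 RPKM in P0, 10.8 and 20.8 RPKM in P1, and 0 and 3.75 RPKM in P2, with limma differences of 2.68 in P1 against P0 (unadjusted p 0.0139) and 2.88 in P1 against P2 (unadjusted p 0.00967). *Snai2*, a transcription factor of epithelial-mesenchymal transition, was at 0.0961 and 2.28 RPKM in P0, 13.3 and 4.19 RPKM in P1, and 0.0209 and 2.95 RPKM in P2, with a limma difference of 2.19 in P1 against P0 (unadjusted p 0.0485). Both P1 libraries were the highest for *Tgfbi* and *Snai2*, as for *Fst*. *Id1*, a BMP target, was at 0 and 4.29 RPKM in P0, 5.60 and 7.09 RPKM in P1, and 7.97 and 11.5 RPKM in P2, with a limma difference of 2.20 in P2 against P0 (unadjusted p 0.0271). *Id1* was among the 237 genes with no reads in P0 of tumor 1 and at least 1 RPKM in each other library. The part of that 0 in the *Id1* difference was not tested. The abundant targets *Junb*, an AP-1 subunit, and *Cdkn1a*, which encodes the cell cycle inhibitor p21, ranged from 99.9 to 232 RPKM and from 87.9 to 259 RPKM. Both P2 libraries lay above both P0 libraries for *Junb* (limma difference 0.66, SE 0.41, unadjusted p 0.140), and the populations overlapped for *Cdkn1a*. Of the 13 targets tested, 6 were higher in both tumors in P1 against P0 and 6 in P2 against P0, and 0 were lower in both in either comparison, where 29.2% and 24.5% of all genes tested were higher and 17.6% and 22.9% lower.

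**Figure D4:**
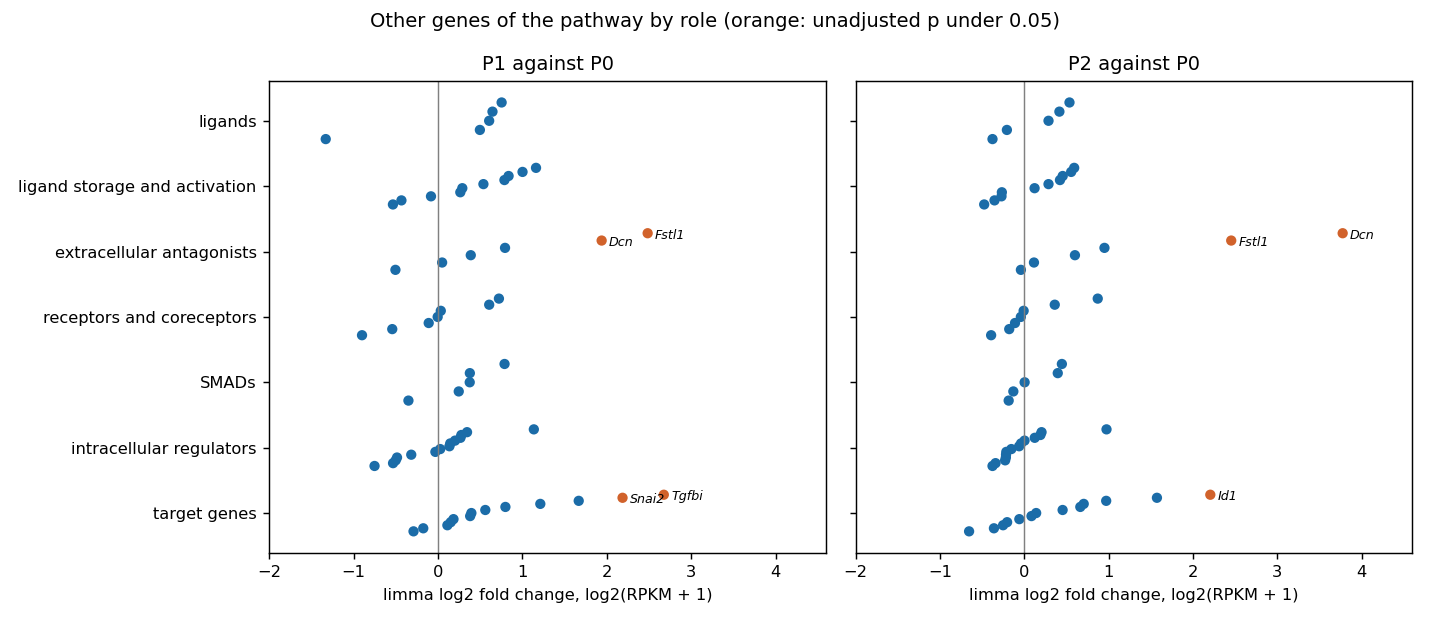
Limma differences of log2(RPKM + 1) for the 60 tested genes of the pathway list, 1 point per gene, by role on the vertical axis, for P1 against P0 and P2 against P0. Orange points with names have an unadjusted p under 0.05 (*Dcn*, *Fstl1*, *Snai2* and *Tgfbi* in P1, and *Dcn*, *Fstl1* and *Id1* in P2), and no gene passed the adjusted threshold.

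The genes whose profile was most like that of *Fst* over the 6 libraries, by the root mean square difference of centered log2(RPKM + 1) values, were *Zfp429* (0.50), *Rhox4a* (0.53), *Rhox4e* (0.55), *Col17a1* (0.55) and *Emb* (0.56), where the median over genes tested was 1.28. *Col17a1*, which was also among the 9 genes that limma-voom called in P1 against P0 and encodes a hemidesmosome collagen of basal epithelium, had 21.5 and 20.02 RPKM in P1, against 1.84 and 3.06 RPKM in P0 and 1.90 and 1.17 RPKM in P2. *Rhox4a* and *Rhox4e* are near-identical copies in a gene cluster, so that their reads may be shared between them. For *Inhba* the nearest genes were *A430078G23Rik* (0.26), *Dok1* (0.28), *Anxa8* (0.33), *Oas1a* (0.33) and *Mmp14* (0.33), with a median of 1.08 over genes tested. *Mmp14*, which encodes a membrane-anchored matrix metalloproteinase, was at 53.3 and 11.7 RPKM in P0, 49.7 and 32.4 RPKM in P1, and 75.7 and 45.5 RPKM in P2. In both of these profiles the shared features are the same 6 libraries, and likeness is a description without a test.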

How the data were processed

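Poly(A) RNA of the 6 libraries was enriched with the NEB-Next module, prepared with the PrepX mRNA kit and sequenced on a HiSeq instrument with the standard Illumina pipeline, and the aligner, genome build and annotation are not given in the sources used here. The authors deposited RPKM for the 6 libraries, which hold reads scaled by gene length and library total. They also deposited group means for P1 and P0, a normalized signal used here only to set the scale of whole reads, and their own fold change, log2 fold change and p-values of P1 against P0, which were not used.

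Whole reads were recovered from the RPKM of 14896 of 14897 genes within 0.01 reads. Library totals of recovered reads were 36200687 and 19443201 in P0 (tumors 1 and 2), 48008802 and 21577459 in P1, and 23773850 and 19037070 in P2. RPKM without a count model were tested with limma 3.58.1 in R 4.3.3 (intensity trend) on log2(RPKM + 1), over the 12512 genes reaching 1 RPKM in 2 or more libraries, in a single model of the 3 populations, with Benjamini-Hochberg adjustment and a threshold of 0.05. A pseudocount of 1 understates the change of genes of low level. The tumor number pairs the libraries, since each tumor was sorted into all populations, and deviations of libraries of the same tumor correlated by 0.185 to 0.242 across genes. Alternatives were a pseudocount of 0.1, no filter, a mean of at least 5 RPKM, median-of-ratios scaling, the tumor as a block, limma-voom on recovered reads, and leaving out each library. Leaving out each library in limma-voom, and scaling before the comparison within tumors, were added after the values were seen. Python 3.11.15 with pandas 2.3.3 and numpy 2.4.6 built the tables, and matplotlib 3.10.9 drew the figures.

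The 10 genes and the lists of pathway genes and markers were chosen with earlier results of these data known. Of the pathway list, the text names in each role the 2 tested genes of highest mean RPKM and every gene with an unadjusted limma p or an adjusted p of any fit under 0.05, and it names the 5 genes nearest in profile to *Fst* and to *Inhba*. *Krt5*, *Krt14*, *Trp63*, *Myh11*, *Pdgfra*, *Pdgfrb*, the fibrillar collagens, *Lum*, *Fap* and *Pdpn* were picked from the marker lists after their values were seen. Of the other marker lists, 8 of 10 macrophage markers summed to 215 to 540 RPKM and were mostly *Cd14*, all 5 pericyte markers summed to 8.24 to 22.4 RPKM, and 2 of 4 platelet markers summed to 0.884 to 2.83 RPKM.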

Additional observations from a re-analysis of the deposited data

Results flagged for a closer look

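*Smad7* moved in opposite directions in the BCSC populations. Its limma difference of log2(RPKM + 1) against bulk cells was 0.10 in P1 and -0.46 in P2, and both tumors went up in P1 and down in P2. Between P1 and P2 the limma difference was 0.55 (SE 0.45, adjusted p 1.00), so a difference between the populations was not shown. After median-of-ratios scaling the P1 value of tumor 1 lay at 0.935 of P0, so that the tumors no longer went the same way in P1.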

How the results depend on the processing

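The number of genes with an adjusted p under 0.05 was 0 by limma in each comparison. It was 9 by limma-voom and 4 (*Col17a1*, *Krt5*, *Postn* and *Sparc*) with the tumor as a replicate block in limma-voom in P1 against P0, and 7 and 15 in P1 against P2. In P2 against P0 it was 2 (*Mir1982* and *Mirlet7d*) at a pseudocount of 0.1, 3 with the replicate block, 1 by limma-voom and 6 by limma-voom with the replicate block. Leaving out single libraries gave 0 to 31 genes in P1 against P0, 0 to 52 in P2 against P0 and 0 to 55 in P1 against P2. By limma alone, leaving out P2 of tumor 2 gave 40 genes in P2 against P0 and 55 in P1 against P2, and leaving out P0 of tumor 2 gave 1 in P2 against P0. In these fits a population with a lone library is assumed to vary like the others. *Fst* in P1 against P0 kept its direction in every setting, with 2.54 by limma-voom, the single unreduced fit that called it, and 1.84 to 2.91 without single libraries. With the tumor as a replicate block no call on the 10 genes changed in limma, and in limma-voom the call on *Fst* was lost. *Fst* in P2 against P0 changed sign in limma-voom (0.094, or 0.43 with the replicate block). *Tgfbr2* in P1 against P0 was -0.061 after scaling and -0.0036 in limma-voom with the replicate block, and *Smad3* in P1 against P2 was -0.012 after scaling. The cause of these changes was not tested. Ranges of an estimate without single libraries take in limma and limma-voom for *Fst* and *Inhba*, and limma alone for the other genes, so their widths are not comparable. Other ranges without single libraries, for P1 against P0, were 0.45 to 2.404 for *Inhba*, 0.31 to 1.64 for *Tgfb3*, -0.52 to 0.34 for *Inhbb*, -0.15 to 0.41 for *Tgfb1*, -0.34 to 0.030 for *Tgfb2*, -0.37 to 0.10 for *Tgfbr1*, -0.22 to 0.27 for *Tgfbr2*, -0.60 to 0.47 for *Smad3* and -0.13 to 0.33 for *Smad7*. For P2 against P0 they were -1.001 to 1.01 for *Fst*, 0.91 to 2.79 for *Inhba*, 0.0097 to 0.87 for *Tgfbr2*, -0.52 to 0.88 for *Inhbb*, -0.027 to 0.54 for *Tgfb1*, -0.49 to 0.32 for *Tgfb2*, -2.64 to 1.61 for *Tgfb3*, -0.66 to 0.046 for *Tgfbr1*, -0.31 to 0.056 for *Smad3* and -0.95 to 0.036 for *Smad7*. For P1 against P2 they were 1.40 to 3.52 for *Fst*, 0.061 to 1.04 for *Smad7*, -1.06 to 0.055 for *Inhba*, -0.97 to 0.43 for *Inhbb*, -0.48 to 0.33 for *Tgfb2*, -0.64 to 3.61 for *Tgfb3*, -0.18 to 0.53 for *Tgfbr1*, -0.84 to 0.014 for *Tgfbr2* and -0.48 to 0.60 for *Smad3*. *Tgfb1* in P1 against P2 ranged from -0.23 to -0.021. The 2 tumors per population limit what these comparisons can show.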
